A study of Saccharomyces cerevisiae with 22 samples.

Results

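The phosphate regulon and polyphosphate genes of Saccharomyces cerevisiae were followed as 10 named genes, chosen by their systematic identifiers: PHO84 (YML123C), PHO89 (YBR296C), PHO5 (YBR093C), PHO11 (YAR071W), PHO12 (YHR215W), PHO3 (YBR092C), PHO8 (YDR481C), VTC1 (YER072W), VTC3 (YPL019C) and VTC4 (YJL012C). All 10 were listed among the 5823 genes of the polyA tables and among the 18222 features of the total RNA tables. The study measured RNA in haploid strains that share the genotype MATa his3d1 lyp1d0 can1d::STE2pr-spHIS5 and differ in the number of ribosomal DNA (rDNA) repeats on chromosome XII. PolyA-selected RNA was sequenced from 10 strains of normal polyA recovery, with 72 (CGY24.17), 84 (CGY29.01), 118 (CGY20.46), 129 (CGY24.16), 147 (CGY20.50), 156 (CGY24.09), 197 (CGY28.50), 208 (CGY28.49), 224 (CGY28.52) and 237 (CGY20.55) repeats, and from 2 strains of low polyA recovery, with 104 (CGY24.21) and 166 (CGY28.53) repeats. Total RNA was sequenced without selection from the same 10 strains as those of normal recovery. Each strain, a single line of cells, has 1 library in an assay. An SD given here is therefore taken over strains and also holds library differences and counting error. An SE is that of a slope or difference of slopes fitted with limma, whose variance is moderated over all genes tested. Poisson and binomial intervals cover counting error only. The sources used here give no growth medium or phosphate content.

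In budding yeast, inorganic phosphate controls most of these genes through the transcription factor Pho4, which works with the homeodomain protein Pho2. When phosphate is plentiful, the cyclin and cyclin-dependent kinase pair Pho80 and Pho85 phosphorylates Pho4 and keeps it out of the nucleus. When phosphate is scarce, the inhibitor Pho81 holds the kinase in check, and Pho4 enters the nucleus and binds CACGTG and CACGTT elements upstream of the genes for high-affinity phosphate uptake, for secreted acid phosphatases and for the vacuolar VTC complex that makes polyphosphate.

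The Pho4 elements upstream of the members are shown because they are the sequence feature that most of these genes share. In the 600 bases before each start codon, on the R64 reference assembly (sacCer3), CACGTG was present upstream of 9 of the 10 members and of 434 of all 6002 nuclear protein-coding genes (7.23%). CACGTT, searched on both strands, was upstream of 7 of the 10 members and of 18.8% of all genes. CACGTG reads the same on both strands, and no site was counted under both motifs. At least 2 sites of either kind were present upstream of 8 members and of 3.58% of all genes. PHO3 had none, PHO84 had 4, VTC3 had 3, VTC1 had 1 and the other members had 2 each. The 30-base windows below are written in the direction of the gene with the element in capitals, and each is named with its chromosome position and strand.
PHO84, chrXIII:26219-26248, minus strand: atttaatagttcCACGTGgacgtgttattt
PHO84, chrXIII:26197-26226, minus strand: tgttatttccagCACGTGgggcggaaatta
PHO89, chrII:798828-798857, minus strand: atgacaatgcagCACGTGggagacaaatag
PHO5, chrII:431296-431325, minus strand: atattaaattagCACGTTttcgcatagaac
PHO5, chrII:431187-431216, minus strand: ccttggcactcaCACGTGggactagcacag
PHO11, chrI:225032-225061, plus strand: ttattaaattacCACGTTttcgcataacat
PHO11, chrI:225165-225194, plus strand: tcttggcgttcaCACGTGggtttaaaaagg
PHO12, chrVIII:551669-551698, plus strand: ttattaaattacCACGTTttcgcataacat
PHO12, chrVIII:551804-551833, plus strand: tcttggcgttcaCACGTGggtttaaaaagg
PHO8, chrIV:1420767-1420796, minus strand: tctacgtcgggcCACGTGcagcgatcactt
VTC1, chrV:302637-302666, plus strand: aatagatattagCACGTGtctcggagagaa
VTC3, chrXVI:517346-517375, minus strand: tgtgcgagggccCACGTGgcttaatacaac
VTC4, chrX:413507-413536, minus strand: attattcatccgCACGTGgctgcacacgtg
The lower-case cacgtg in the VTC4 window is the other site of that gene. The PHO11 and PHO12 windows are letter for letter the same. PHO5 carries a CACGTT 362 bases and a CACGTG 253 bases before its start codon. A match is a description of the letters in the window and does not show that Pho4 binds there, and CACGTG is also the core of the element bound by Cbf1.

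The secreted acid phosphatase genes PHO5, PHO3, PHO11 and PHO12 are close copies, which bears on how reads can be told apart. Each has a coding length of 1404 bases. PHO3 lies at chrII:427698-429101 and PHO5 next to it at chrII:429548-430951, both on the minus strand. PHO11 at chrI:225460-226863 and PHO12 at chrVIII:552099-553502 lie 3.36 kb and 9.14 kb from the end of their chromosomes. PHO11 and PHO12 differed at 4 of 1404 bases and shared 1258 of 1374 stretches of 31 bases, so the division of reads between these 2 genes is uncertain. PHO5 and PHO3 were 86.5% identical and shared 15.2% of such stretches. The 60 bases in which PHO5 and PHO3 differ most, at coding bases 634 to 693, are shown with each base that differs from PHO5 in capitals.
PHO5, chrII:430259-430318, minus strand: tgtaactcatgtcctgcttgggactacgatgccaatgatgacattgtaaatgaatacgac
PHO3, chrII:428409-428468, minus strand: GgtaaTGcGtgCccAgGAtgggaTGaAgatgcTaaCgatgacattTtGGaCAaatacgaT
PHO11, chrI:226093-226152, plus strand: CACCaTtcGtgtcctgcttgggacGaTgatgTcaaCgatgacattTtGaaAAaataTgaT
PHO12, chrVIII:552732-552791, plus strand: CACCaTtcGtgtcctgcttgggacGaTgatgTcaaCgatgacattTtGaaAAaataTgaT
PHO3 differed from PHO5 at 19 of these bases and PHO11 and PHO12 at 16 each. No stretch of 31 bases was shared between members outside this family.

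Mating-type genes were checked against the MATa label. The a-factor gene MFA1 stood at 4715 to 7595 TPM in polyA RNA (a level per transcript length on which each library sums to 1000000), and the other 5 a-specific markers averaged from 50.6 (STE6) upward. Of the 4 alpha-specific markers, MF(ALPHA)1 stood at 0 to 1.28 TPM, MF(ALPHA)2 at 0 to 1.22 TPM, STE3 at 2.48 to 4.51 TPM and SAG1 at 10.2 to 12.3 TPM. LYP1 and CAN1 were listed at 0 in every polyA library, and HIS3, whose labelled allele is his3d1, at 86.0 to 103 TPM. In total RNA LYP1 had 6 reads and CAN1 had 299. The assays thus differ for CAN1, which is labelled as deleted, and the source of its total RNA reads was not tested. Depth in total RNA was 6495626 to 7934346 reads a library, with 377961 to 465591 of them from outside the rDNA. The TPM values keep no depth.

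**Figure D1:**
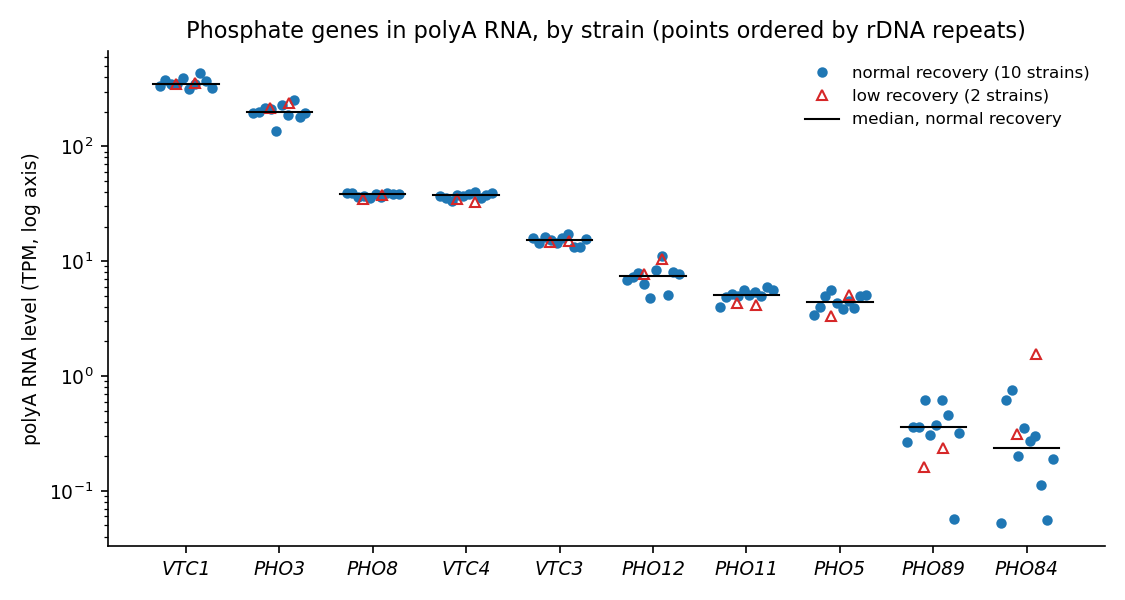
PolyA RNA level of each phosphate gene in TPM on a log axis; circles are the 10 strains of normal recovery in order of rDNA repeats, triangles the 2 strains of low recovery, and bars the median of the circles. VTC1 and PHO3 stand highest and PHO89 and PHO84 stand below 1 TPM in all 10 strains.

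The high-affinity phosphate transporters were the lowest members. PHO84, the main proton-coupled phosphate transporter of the plasma membrane, ranged from 0.0524 TPM at 72 repeats to 0.759 TPM at 118 repeats, with a median of 0.237 TPM. Only 2.08% of the 5823 genes had a lower mean. PHO89, the sodium-coupled transporter, ranged from 0.0573 TPM at 224 repeats to 0.624 TPM at 129 repeats, with a median of 0.359 TPM. Both genes were below 1 TPM in all 10 strains, and their ranges overlapped.
In total RNA PHO84 had 1 read in the 10 libraries together, at 224 repeats, which is 0.232 per 1000000 reads outside the rDNA (exact Poisson 95% interval 0.00588 to 1.30). PHO89 had 0 reads of 4302437, which allows a share of up to 0.697 per 1000000 by 3 reads and 0.857 by the exact Poisson 95% interval. Because the libraries are bulk RNA, fewer cells with a transcript and less transcript in each cell cannot be told apart.

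The repressible acid phosphatases came next. PHO5, the major secreted acid phosphatase under phosphate limitation, ranged from 3.42 TPM at 72 repeats to 5.59 TPM at 129 repeats, and averaged 4.45 TPM ± 0.68 (SD over 10 strains). PHO11, a minor secreted acid phosphatase, ranged from 3.97 TPM at 72 repeats to 5.94 TPM at 224 repeats, and averaged 5.15 TPM ± 0.54. PHO12, the near-identical copy of PHO11, ranged from 4.76 TPM at 147 repeats to a value 2.31 times as high at 197 repeats, and averaged 7.35 TPM ± 1.79. The strain with 72 repeats was the lowest for both PHO5 and PHO11 but not for PHO12, whose fold range was the widest of the acid phosphatases. In total RNA these genes had 31, 27 and 51 reads over the 10 libraries, with at most 6, 6 and 10 in any 1 library, too few to pass the filter on low values.

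PHO3, the acid phosphatase that is repressed by thiamine rather than by phosphate, was far above its neighbour PHO5. Its polyA level ranged from 137 TPM at 147 repeats through a median of 197 TPM to 253 TPM at 208 repeats, and 90.8% of genes had a lower mean. Within strains the ratio of PHO3 to PHO5 in TPM ran from 31.8 at 147 repeats to 65.0 at 208 repeats, with a median of 42.2. In total RNA, PHO3 had 1287 reads against 31 for PHO5, a ratio of 41.5 between genes of the same coding length. The 2 genes share 15.2% of stretches of 31 bases, and whether PHO3 reads were assigned to PHO5 was not tested. The level of PHO3 thus stood above that of PHO5 in every strain and in both assays.

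PHO8, the vacuolar alkaline phosphatase, was the steadiest member. It ranged from 35.3 to 39.1 TPM and averaged 37.7 TPM ± 1.38 (SD, n = 10), a highest value 1.11 times the lowest. The SD of its log2 level was 0.05, and 0.303% of the 1977 tested genes with a mean within 2-fold of its own had a smaller one. By contrast PHO3 and PHO12 had SDs of 0.23 and 0.31 on the log2 scale, larger than those of 95.2% of 631 and 93.3% of 1601 genes of like level. The division of reads between PHO12 and PHO11 is uncertain, and its part in the PHO12 spread was not tested. The median SD over all 5542 genes tested was 0.14.

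The subunits of the VTC polyphosphate polymerase stood at unequal levels. VTC1, the small membrane subunit, ranged from 313 TPM at 156 repeats through a median of 349 TPM to 433 TPM at 208 repeats. VTC4, which holds the catalytic domain, ranged from 33.2 to 40.1 TPM and averaged 37.2 TPM ± 1.99 (SD, n = 10). VTC3, an accessory subunit, ranged from 13.2 TPM at 208 repeats to 17.3 TPM at 197 repeats and averaged 15.1 TPM ± 1.30. The strain with 208 repeats thus had the highest VTC1 and the lowest VTC3. VTC2, the alternative accessory subunit, was not among the members and ranged from 28.2 to 37.8 TPM.

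The order of mean polyA levels was VTC1, PHO3, PHO8, VTC4, VTC3, PHO12, PHO11, PHO5, PHO89 and PHO84. Of the 9 pairs of neighbours in this order, 7 had a mean within-strain difference away from 0 at an adjusted p under 0.05. The test was an exact two-sided sign-flip test on log2(TPM + 1), with a smallest possible p of 0.00195. VTC1 was above PHO3 in 10 of 10 strains by 0.85 ± 0.28 log2 units (SD; exact p = 0.00195, adjusted p over 9 pairs = 0.00352). PHO12 was above PHO11 and PHO11 above PHO5 in 9 of 10 strains each (exact adjusted p = 0.00879 and 0.0100), but reads of PHO11 and PHO12 can hardly be told apart, so the order of these 2 genes is uncertain. The neighbours were set by the same mean levels that were then compared. PHO8 and VTC4 differed by 0.02 ± 0.09 log2 units (exact adjusted p = 0.461), and PHO89 and PHO84 by 0.10 ± 0.27 log2 units (exact adjusted p = 0.279), which was within the spread between strains.

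The order of the highest members was reversed in total RNA. Per kb of coding length, PHO3 stood at 90.0 ± 20.0 normalised reads and VTC1 at 66.0 ± 15.6 (SD, n = 10). The ratio of VTC1 to PHO3 ranged from 1.38 to 2.90 in polyA RNA and from 0.50 to 0.965 in total RNA, so VTC1 was the higher in 10 of 10 strains in polyA RNA and in 0 of 10 in total RNA. The ratio of VTC1 to VTC4 had a median of 9.48 in polyA RNA and 3.27 per kb in total RNA, and was higher in polyA RNA in all 10 strains. VTC1 is the shortest member, with a coding length of 390 bases against 2166 for VTC4. The total RNA values were divided by the coding length, while the TPM were made by the authors with their own transcript lengths. Whether this difference in length handling, the fragment length or the polyA selection bears on the ratios was not tested.

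Total RNA also held features whose identifiers name a possible antisense transcript of a gene, and 3 members had one: PHO5, PHO3 and VTC1. Antisense transcripts across PHO5 and PHO84 have been described in budding yeast. The PHO5 antisense feature had 37 reads over the 10 libraries against 31 for PHO5 itself, so it held 54.4% of their reads together (exact binomial 95% interval 41.9% to 66.5%). It had 1 to 7 reads in each library and a read in all 10. It was above PHO5 in 5 libraries, below it in 4 and equal in 1. The division of reads between PHO5 and PHO3, which bears on the PHO5 count, was not tested. The PHO3 antisense feature had 8 reads against 1287 for PHO3 (0.618%, interval 0.267% to 1.21%), and that of VTC1 had 0 against 264, which allows up to 1.39% by the same interval. Among 785 genes with such a feature and at least 30 reads in all, the median antisense share was 2.50%, and 15.8% had a share at least that of PHO5. The library kit keeps strand, per the labels' protocols, but the sources used here give neither coordinates nor counting settings for these features. These features were chosen after their values were seen.

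**Figure D2:**
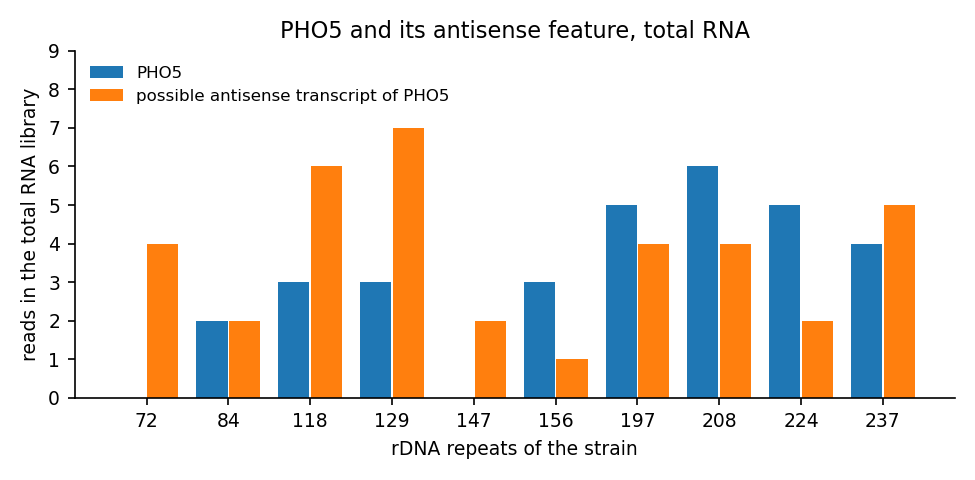
Reads assigned to PHO5 and to the feature named as its possible antisense transcript in each total RNA library, by rDNA repeats of the strain. The bars run from 0 to 7 reads, and the antisense bar is the higher in 5 of 10 libraries.

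The main question of the design is whether RNA levels follow array length. Slopes of log2(TPM + 1) on repeat number were fitted with limma over the 5542 genes that averaged 1 TPM or more, 8 members among them. No member passed an adjusted p of 0.05, and neither did any gene (0% called, with a lowest adjusted p of 0.326). Without adjustment 312 genes (5.63%) and 0 members had a p under 0.05. The 8 member slopes had a median of 0.05 log2 units per 100 repeats, beside -0.02 over all genes tested. Of the 8, 6 were above 0, beside 40.6% of all genes tested. PHO11 had the slope with the smallest p, 0.16 ± 0.08 log2 units per 100 repeats (SE; limma p = 0.0680, adjusted p = 0.868), and PHO5 had 0.12 ± 0.11 (SE; limma adjusted p = 0.889). Without the strain with 72 repeats, the lowest for both, these slopes were 0.09 and 0.04. PHO12 had 0.09 ± 0.16, and 0.0045 without the strain with 197 repeats.
The 95% intervals bound what these strains could show. That of PHO8 ran from -0.12 to 0.12 log2 units per 100 repeats, that of VTC4 from -0.06 to 0.19, that of VTC1 from -0.14 to 0.18 and that of PHO12, the widest, from -0.25 to 0.42. PHO84 and PHO89 were below the filter. Fitted without it, PHO84 had a slope of -0.18 ± 0.14 and PHO89 of -0.04 ± 0.12 (SE; limma adjusted p = 0.881 and 0.965), on a scale that compresses values under 1 TPM.

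**Figure D3:**
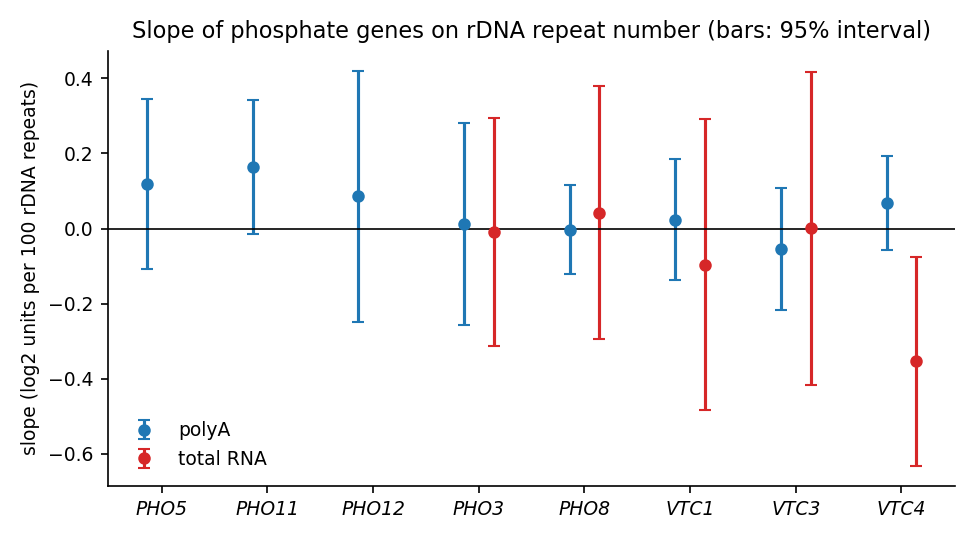
Slope of each tested member on rDNA repeat number in log2 units per 100 repeats, in polyA RNA (8 members) and total RNA (5 members); bars are 95% intervals from limma. The interval of VTC4 in total RNA, -0.63 to -0.08, is the 1 shown that does not reach 0, before adjustment for 4014 features.

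In total RNA, 4014 features passed the filter and 5 members were among them: PHO3, PHO8, VTC1, VTC3 and VTC4. No member passed adjustment, and 1 feature did (0.0249%). Without adjustment 189 features (4.71%) had a p under 0.05, and VTC4 was the 1 member among them. VTC4 ranged from 31.3 normalised reads at 224 repeats through a median of 39.7 to 56.3 at 84 repeats. The strains with 72 and 84 repeats were the highest, at 48.6 and 56.3, and the other 8 lay between 31.3 and 43.0. Its slope was -0.35 ± 0.14 log2 units per 100 repeats (SE; limma p = 0.0143, adjusted p = 0.987), and with strain series as a covariate it was -0.17 ± 0.22. Within CGY20, CGY24 and CGY28 it was -0.10, -0.28 and -0.63 over 3 strains each, with no test.
The polyA values of VTC4 in those strains did not stand apart: 37.1 and 35.6 TPM at 72 and 84 repeats lay within the 33.2 to 40.1 TPM of the other strains. The difference of the slopes, total minus polyA, was -0.42 ± 0.12 for VTC4 (SE; limma p = 0.00226, adjusted p = 0.999). That difference was tested over 3662 genes measured in both assays, of which 0% passed adjustment and 3.28% had an unadjusted p under 0.05. VTC4 was the 1 of 5 members with such a p. The fit pooled the variance of both assays and left out the pairing by strain. Its SE for VTC4 was below the 0.136 of the total RNA slope alone, so the unadjusted p may be too small.
Members below the total RNA filter were also fitted without it, over 10580 features of which 4.49% had an unadjusted p under 0.05. PHO5, with 0 to 6 reads in a library, had 0 reads at 72 and 147 repeats and its 6 at 208 repeats. Its slope was 1.18 ± 0.41 log2 units per 100 repeats (SE; limma p = 0.00447, adjusted p = 0.942), between 0.84 without the strain with 72 repeats and 1.37 without that with 237, and it was 0.74, 2.68 and -0.04 within the series CGY20, CGY24 and CGY28. PHO84, PHO11 and PHO12 had slopes of 0.23 ± 0.22, 0.16 ± 0.42 and -0.03 ± 0.37 (SE).

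**Figure D4:**
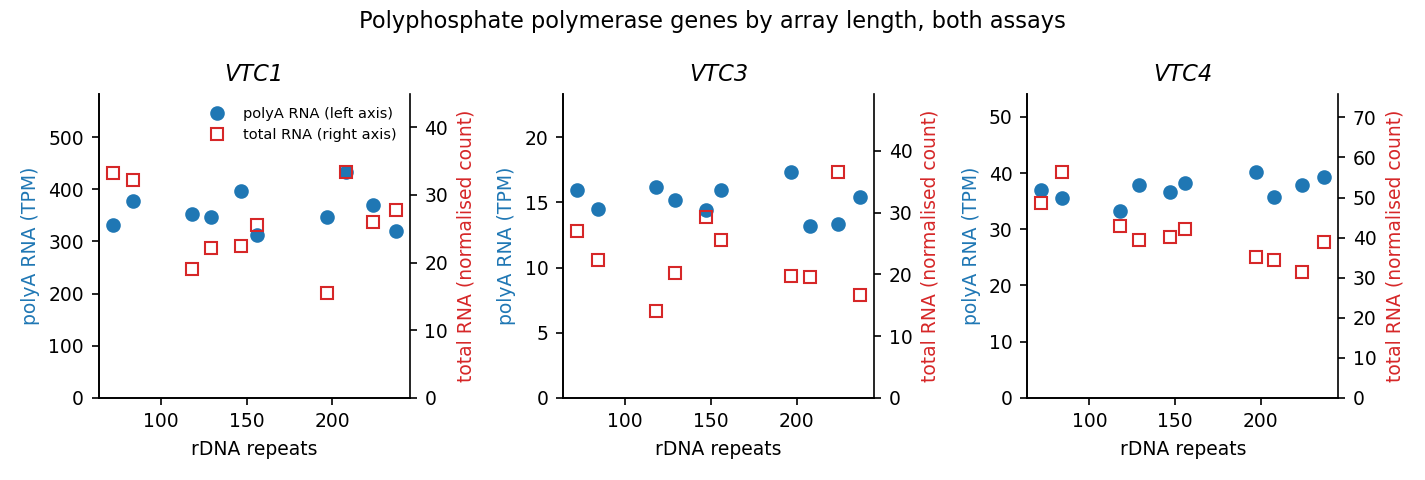
VTC1, VTC3 and VTC4 by rDNA repeats; filled circles are polyA RNA in TPM on the left axis and open squares total RNA in normalised reads on the right axis, both axes from 0. Total RNA of VTC4 is highest at 72 and 84 repeats, where its polyA level is within the range of the other strains.

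The spread between strains in total RNA was set beside counting error. VTC4 had 30 to 63 reads in a library and a coefficient of variation of 17.8% between strains, beside 15.4% for the counting error of its mean read number. PHO8 had 12.9% beside 19.4%, and VTC1 23.6% beside 19.5%. VTC3 had 28.8% beside 20.7%, and PHO3, with 91 to 196 reads, had 22.2% beside 8.81%.

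The strain names fall into the series CGY20, CGY24 and CGY28, with 3 strains each, and CGY29 with 1. Across these 3 series, limma's F test called 0 of 8 members in polyA RNA, where 0.0361% of 5542 genes were called, and 0 of 5 in total RNA, where 0% were called. VTC1 had the smallest p, with means of 356 TPM ± 38.4 in CGY20, 331 TPM ± 16.9 in CGY24 and 383 TPM ± 44.3 in CGY28 (SD, limma adjusted p = 0.855). CGY20 ran from 118 to 237 repeats and overlapped both other series in array length. CGY24 (72 to 156) and CGY28 (197 to 224) did not overlap, so series and array length cannot be told apart between them.

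PHO3 was the 1 member whose levels were correlated between the assays after adjustment. Its level was lowest at 147 repeats and highest at 208 repeats in polyA RNA, and lowest at 147 repeats (89.0 normalised reads) and highest at 208 repeats (192) in total RNA. Across the 10 strains the 2 assays had Pearson's r of 0.872 (permutation p = 0.00326, adjusted over 5 members = 0.0163) and Spearman's rho of 0.818 (permutation p = 0.00561, adjusted = 0.0280). Without those 2 strains r was 0.629 (exact permutation p = 0.0947), so the call rests on them. The share of all genes with such a correlation is not given here. The call is therefore not shown to be particular to PHO3.
For the other 4 members no correlation between the assays passed adjustment. PHO8 had r of -0.667 (permutation p = 0.0255, adjusted = 0.0639) and rho of -0.636 (permutation p = 0.0534, adjusted = 0.134), and r of -0.44 without the strains with 147 and 197 repeats (exact permutation p = 0.268). VTC1 had r of 0.206, VTC3 of -0.423 and VTC4 of -0.384, with rho of 0.20, -0.358 and -0.491 permutation p between 0.154 and 0.584 for both measures, and adjusted values between 0.257 and 0.584.

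**Figure D5:**
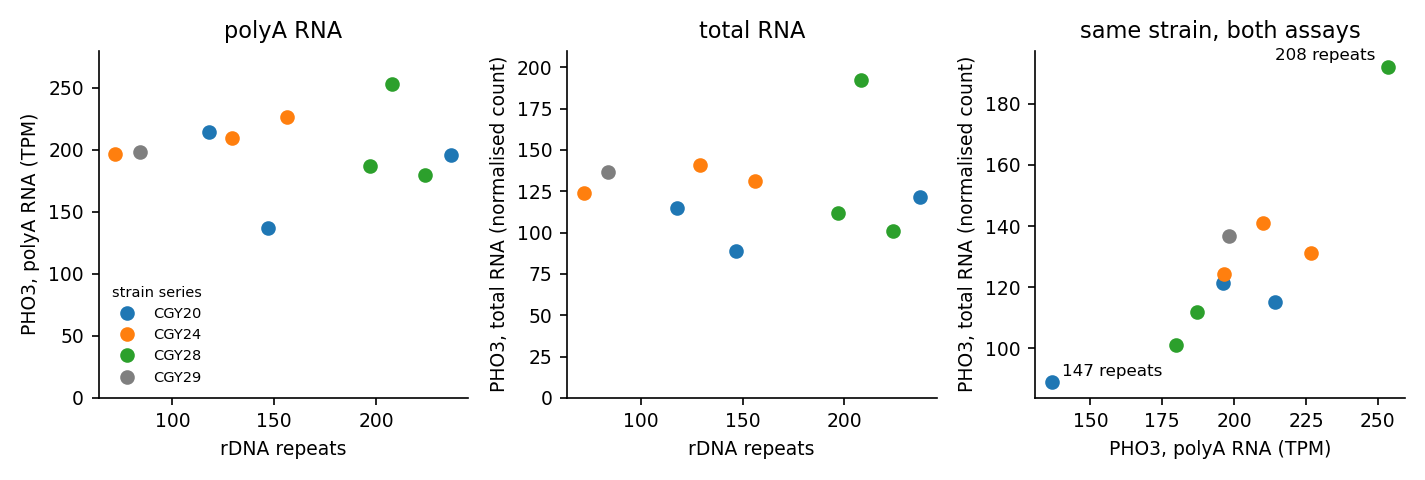
PHO3 in polyA RNA (TPM) and total RNA (normalised reads) by rDNA repeats, and the assays against each other, 1 point per strain coloured by strain series. The strain with 147 repeats is lowest and the strain with 208 repeats highest in both assays.

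No correlation of PHO84 with another member passed the test. Of its 9 correlations across the 10 polyA strains, 0 passed adjustment by Pearson's r or Spearman's rho, and 0 had a permutation p under 0.05 before it. The r farthest from 0 was that with VTC4, -0.582 (permutation p = 0.0783, adjusted = 0.705; rho -0.370, permutation p = 0.294, adjusted = 0.885), and it turned to 0.306 without the strains with 118 and 84 repeats (exact permutation p = 0.453). That with PHO8 was -0.435 (permutation p = 0.206, adjusted = 0.928; rho -0.576, permutation p = 0.0886, adjusted = 0.798), and -0.796 without those strains (exact permutation p = 0.0217, unadjusted). PHO89, the other high-affinity transporter, had r of 0.232 and rho of 0.297 with PHO84 (permutation p = 0.514 and 0.407, adjusted = 0.937 and 0.885).
Among the 28 pairs of the 8 members above 1 TPM, 0 passed adjustment and 4 had an unadjusted permutation p under 0.05 for Pearson's r. The share over pairs of all genes is not given here, so this count is no result about the members. PHO5 and PHO11 had r of 0.633 and rho of 0.515 (permutation p = 0.0420 and 0.133, adjusted = 0.326 and 0.414), and r of 0.704 without the strains with 72 and 129 repeats (exact permutation p = 0.0611). VTC1 and VTC3, subunits of the same complex, had r of -0.731 and rho of -0.697 (permutation p = 0.0172 and 0.0314, adjusted = 0.326 and 0.335), and r of -0.538 without the strains with 208 and 147 repeats (exact permutation p = 0.166). PHO12 had r of -0.631 and rho of -0.576 with VTC1 (permutation p = 0.0497 and 0.0887, adjusted = 0.326 and 0.357), and r of 0.642 and rho of 0.576 with VTC3 (permutation p = 0.0442 and 0.0892, adjusted = 0.326 and 0.357). Without the strains with 147 and 197 repeats these r were -0.699 and 0.481 (exact permutation p = 0.0552 and 0.223). The uncertain division of reads between PHO12 and PHO11 applies to these PHO12 values too.

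The genes whose polyA pattern was most like that of PHO84 were ranked by Pearson's r over the 10 strains, among 5542 genes. The highest were SEC20 (r = 0.915), a SNARE of retrograde transport to the endoplasmic reticulum, MRPL51 (0.876) and MRPL8 (0.815) of the mitochondrial ribosome, SUS1 (0.820), which works in transcription and mRNA export, PBY1 (0.817), the gene next to PHO5 on chromosome II, and YCL048W-A (0.816). The lowest were INA1 (-0.867), the ribonucleotide reductase gene RNR3 (-0.851) and the malic enzyme gene MAE1 (-0.831). Without the strains with 118 and 84 repeats the r of SEC20 was 0.697 and that of PBY1 0.489. These are descriptions of a ranking over 10 points in which PHO84 is below 1 TPM throughout.

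No gene of the wider phosphate pathway passed the test on array length either. The lists of other phosphate genes (signalling, other Pho4 targets, other transporters, polyphosphate turnover and other phosphatases) held 33 genes, of which 32 were tested in polyA RNA and 22 in total RNA, and 0 were called in either. An unadjusted p under 0.05 was found for 1 of the 32 in polyA RNA and 1 of the 22 in total RNA, beside 5.63% and 4.71% of all features. Their median slope was -0.0015 log2 units per 100 repeats in polyA RNA and -0.09 in total RNA, beside -0.02 and -0.00091 over all features tested. The regulators were present in every strain: PHO4 at 27.3 to 36.1 TPM, PHO2 at 9.70 to 13.5 TPM, PHO80 at 16.7 to 23.6 TPM and PHO81 at 5.40 to 7.25 TPM. The kinase gene PHO85 stood at 39.4 to 48.9 TPM, and its slope was -0.05 ± 0.06 in polyA RNA and -0.51 ± 0.20 in total RNA (SE; limma p = 0.0169 and adjusted p = 0.987 in total RNA). SPL2 and PHM6, genes strongly induced by phosphate starvation, stood at 0.643 to 2.87 TPM and 2.35 to 8.87 TPM.
The gene with such a p in total RNA was PHO85 and that in polyA RNA was DIA3, a homologue of the acid phosphatases. DIA3 ranged from 0.677 to 2.31 TPM with a slope of 0.43 ± 0.13 log2 units per 100 repeats (SE; limma p = 0.00523, adjusted p = 0.726).

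Thiamine genes were read beside PHO3, which thiamine represses. The 4 with the highest mean levels were THI80 (19.1 TPM), THI6 (18.6 TPM), THI7 (16.1 TPM) and THI3 (12.7 TPM). Their r with PHO3 across the 10 strains was -0.398, 0.0703, 0.407 and -0.159, with permutation p of 0.235, 0.856, 0.262 and 0.679 and adjusted values of 0.525 or more. Their rho was -0.115, -0.139, 0.164 and -0.418, with permutation p of 0.758, 0.707, 0.659 and 0.233, and without the strains with 147 and 208 repeats r was 0.467, -0.155, 0.0116 and -0.148. Mean levels of the 20 listed thiamine genes ran from 0.548 to 19.1 TPM, with a median of 7.05 TPM, all below that of PHO3. Only the 4 named genes were compared with PHO3. Lower ones such as THI4 (6.73 TPM) were left out, and control by thiamine was not tested.

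The 2 libraries of low polyA recovery were set against the range of the 10 normal ones. Of all 5542 genes tested, 18.1% lay outside that range at 104 repeats and 12.3% at 166 repeats, beside 2 and 1 of the 8 members tested, which is no result about the members. At 104 repeats 8 of 10 members lay inside that range, with PHO5 at 3.34 TPM and PHO8 at 34.5 TPM just below it. At 166 repeats 8 lay inside, VTC4 was below it at 32.6 TPM, and PHO84 was above it at 1.55 TPM against a highest normal value of 0.759 TPM. With 1 library for each of these strains there is no replicate check of that difference.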

How the data were processed

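RNA was extracted with acid phenol, cleaned on columns with DNase and made into strand-keeping libraries, with or without polyA selection, per the labels' protocols. The submitters' processing notes name bcl2fastq, Salmon 0.8.1, DESeq2 and the sacCer3 build, without their settings. For polyA RNA the authors deposited TPM, in 5919 entries with 96 spike-ins at 0. The deposited total RNA files hold a signal per feature that is a read count divided by a size factor: 100% of values are whole multiples of each library's smallest within 0.001, which gave the reads. Because these values are scaled, log2(value + 1) was tested with limma, and edgeR and DESeq2 on the recovered reads were alternatives.

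Trends on repeat number were fitted with limma 3.58.1 (R 4.3.3, trend and robust) over genes averaging 1 TPM or more, or over features outside the rDNA (48 left out) that pass edgeR's expression filter. Two-sided p-values were adjusted by the Benjamini-Hochberg method over all features tested. Correlations used 100000 permutations (exact under 10 values). The fits were tested on simulated data. The libraries of a strain in the 2 assays are paired by the strain name: their deviations correlated at 0.141 to 0.517 over 3662 genes in all 10 strains. Alternatives included pseudocounts of 0.1 and 5, no filter, quantile normalisation, the low recovery libraries, strain series as a covariate and leaving out each strain. Members, lists and tests were chosen with earlier results of these data known. Named were all members, 8 phosphate genes with any other at an unadjusted p under 0.05, the 6 genes most and 3 least like PHO84, and the 4 thiamine genes of highest level; exceptions are stated. Sequences and coordinates come from the RefSeq R64 genome, the build of the sacCer3 name. Protein and promoter tables were not used here.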

Additional observations from a re-analysis of the deposited data

Results flagged for a closer look

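PHO3 in total RNA had 1 strain far from the others: 192 normalised reads at 208 repeats, where the next highest strain had 141 and the group of 10 had a median of 123. The same strain was highest in polyA RNA, at 253 TPM. It was the 1 high or low value that stood apart among 15 sets of 10 strains checked, and chance flags about 1 in 20 such sets.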

How the results depend on the processing

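No member was called under any alternative run: 0 of 8 in polyA RNA, 0 of 5 in total RNA, 0 for the difference between assays and 0 between strain series. With a replicate block of strain, the assay comparison called 0 genes. The block cannot change the estimated differences of slopes, so the -0.42 of VTC4 is not checked by it. The SE could move, and for VTC4 it was 0.13 with the block (limma adjusted p = 0.972) beside 0.12 without it. The total RNA slope called 1 feature as reported, 2 with a pseudocount of 5, 4 without the filter, 0 with strain series as a covariate, 3 with edgeR and 2 with DESeq2. Leaving out 1 strain in turn gave 0 to 1 calls for the polyA slope, 0 to 2 for the total RNA slope, 2 to 6 for the polyA strain series and 0 to 3 for the total RNA strain series. Of 213 member slopes and differences recomputed, 185 kept their direction and 28 turned, all for slopes that were smaller than their SE in the main fit. The 185 include the slopes without the filter and the differences with a strain block. Those equal the main estimates by construction and could not turn. In polyA RNA PHO8 turned to 0.044 with strain series, 0.029 with quantile normalisation and 0.017 with the low recovery libraries. VTC1 turned to -0.13 ± 0.11 (SE) with strain series, a slope larger than its SE. In total RNA strain series gave 0.12 for PHO3, -0.22 for PHO8 and 0.18 for VTC1, PHO3 gave 0.015 with edgeR and 0.016 with DESeq2, and VTC3 gave -0.00019 with a pseudocount of 0.1. Leave-one-out slopes ranged from -0.061 to 0.054 (PHO3), -0.014 to 0.019 (PHO8) and -0.031 to 0.092 (VTC1) in polyA RNA, and from -0.14 to 0.076 (PHO3), -0.0080 to 0.064 (PHO8), -0.19 to 0.039 (VTC1) and -0.20 to 0.16 (VTC3) in total RNA. VTC4 in total RNA stayed between -0.44 and -0.28, and in polyA RNA PHO5 ranged from 0.036 to 0.16, PHO11 from 0.094 to 0.19 and PHO12 from 0.0045 to 0.18. The cause of these changes was not tested. The counts of 0 for PHO84 with members, 0 for member pairs, 7 for neighbours in level and 1 for the same strain across assays did not move under their alternatives. Member pairs and level order, with their alternatives, and the slopes within strain series were chosen after seeing the data. The depth outside the rDNA limits the total RNA values, and TPM without depth limit those of PHO84 and PHO89.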

Other observations

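The genes whose polyA pattern over the 10 strains was most like that of PHO3 were listed after the values were seen: COS2 and COS3, whose deposited values are identical (r = 0.966), MRH1 (0.960), PMP3 (0.954), AVT1 (0.951), GAS5 (0.949), GAS1 (0.946) and VPS68 (0.944). GAS1 and GAS5 encode glucanosyltransferases of the cell wall, and PMP3 and MRH1 encode membrane proteins. Without the strains with 147 and 208 repeats their r lay between 0.671 for GAS5 and 0.920 for PMP3. The total RNA libraries come from the same strains, so they are no independent check of genes chosen in this way, and their values are given without a test. There GAS1 had r of 0.920 with PHO3, and 0.570 without the 2 strains farthest from the PHO3 median. The other 7 had r from 0.237 for COS2 and COS3 to 0.689 for AVT1.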
